A study of Mus musculus with 24 samples.

Results

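Fibronectin (Fn1) and 8 matricellular proteins were followed through total RNA and polysome fractions of mouse fibroblasts treated with halofuginone. The members were the rows of the deposited count table with the symbols Fn1, Thbs1, Thbs2, Tnc, Postn, Sparc, Sparcl1, Tgfbi and Fstl1, which are 9 of 49568 gene rows, and all 9 had counts in every library. The cells were NIH/3T3, an established line of mouse embryonic fibroblasts with no stated genetic change. They were kept for 24 h either with halofuginone, labelled 100 nM, or with its vehicle PBS. Each treatment gave 4 kinds of RNA: total RNA from whole cells, a ribosome-free pool of gradient fractions (free mRNA and single ribosomal subunits), light polysomes (mRNAs on few ribosomes) and heavy polysomes (mRNAs on more than 5 ribosomes). With 3 libraries for each, there were 8 groups and 24 libraries.

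Fibronectin is a large secreted glycoprotein that cells assemble into fibrils through integrins, and the fibrils serve as a scaffold for collagen and other matrix proteins. Matricellular proteins are secreted into the same matrix, but act mainly as modulators of adhesion, growth factor activity and collagen assembly rather than as structural fibres. Fibroblasts are a main source of both, and many of these genes are known to respond to TGF-beta and to tissue injury. Halofuginone inhibits the prolyl-tRNA synthetase activity of Eprs, so that uncharged proline tRNA accumulates and the amino acid response is switched on.

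Total counts per library ran from 10300517 to 24970047. Column headers divide them into set A, with 1 library of each group (8 in all), and set B, with the other 16. Halofuginone headers of set A name 50 nM, against 100 nM in the sample labels, and its pools join fractions 1 to 2, 3 to 6 and 7 to 11. Set B pools join fractions 1 to 5, 6 to 13 and 14 to 21, and its headers carry tag 2 together with tag 3 for total RNA and tag 4 for pools. Set and header dose cannot be told apart. The treatment response differed widely between libraries with the same tag: in total RNA, 0.41% of genes at 5 CPM or more differed by over 2-fold between the set A libraries, 22.7% between those of tag 2 and 25.8% between those of tag 3. In light and heavy polysomes the tag 4 libraries differed at 18.6% and 18.9% of genes, while the set A and tag 2 libraries differed at 1.46% to 2.73%. In the ribosome-free pool of tag 4 only 0.226% of genes differed, and Slc7a11, a target of the amino acid response, had a log2 ratio of 0.03 there against 2.77 and 3.50 in the light and heavy pools with that tag. The library labelled halofuginone in that pool thus lacked the response of its companion pools, and values are given with and without it. Other tags were uneven as well. Trib3 had a log2 ratio of 3.92 in tag 2 total RNA, but -0.31 and -0.34 in the ribosome-free and light pools of that tag. Slc7a11 was at 1.86 and 1.27 in those 2 pools. In set A, Eprs was at -0.01 in total RNA and at 0.83 to 0.91 in the pools. The halofuginone total RNA libraries of tags 2 and 3 were much closer to each other (mean chi-square per gene 3.12) than any other pair of one group (21.1 or more). They still differed by more than sampling noise and were kept as 2 libraries, but the labels do not say whether libraries came from separate cultures, and p-values measure only the spread between libraries. Fibroblast markers were present in vehicle total RNA, with Vim at 3487 CPM and Pdgfrb at 436 CPM. Defining markers of epithelial and endothelial cells averaged under 0.5 CPM in both treatments. In total RNA of set B, 36.9% of all genes were called lower and 33.1% higher. Of the 6 fibroblast markers 1 was called higher and 5 lower there (median log2 fold change -1.57). The only leukocyte marker tested, Cd68 (3.58 CPM in vehicle), fell too, with a log2 fold change of -1.86, while the other 5 leukocyte markers averaged under 0.5 CPM. Of 5 adipocyte markers 2 were tested, Lpl (173 CPM in vehicle) and Fabp4 (11.01 CPM), and both fell (median -2.15), while Adipoq, Plin1 and Cidec averaged under 0.5 CPM. Of 5 smooth muscle markers 3 were tested, all 3 with a log2 fold change below 0 (median -1.02) and 1 of them called lower, with Acta2 at 204 CPM in vehicle. The part of these markers in the results was not tested.

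Values are CPM (a gene's count as a share of its library, after TMM scaling within a kind of RNA). They describe shares of each library and not amounts per cell, and in bulk RNA fewer cells of a type and less RNA per cell cannot be told apart. In vehicle total RNA, per kilobase of exon, fibronectin was the most abundant member at 678 ± 47.0 CPM per kb (SD, n = 3). It was followed by Thbs2 at 452 ± 42.3, Sparc at 230 ± 40.0 and Fstl1 at 79.1 ± 5.76 CPM per kb. The ranges of these 4 did not overlap with one another. Thbs1 (63.8 ± 33.5 CPM per kb) overlapped with both Fstl1 above it and Sparcl1 (39.1 ± 16.2) below it. Tnc (18.1 ± 1.57) and Postn (8.67 ± 8.97) also overlapped, and Tgfbi was the lowest at 1.80 ± 0.901 CPM per kb. With halofuginone, fibronectin was at 782 ± 94.3 CPM per kb and Thbs2 at 184 ± 160.

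The comparison of total RNA asks how treatment changed the level of each mRNA in the cell. Thrombospondin 2, Sparc, Sparcl1, Fstl1 and Tnc were lower in all 3 halofuginone libraries than in any vehicle library, so 5 of the 9 members did not overlap between groups, where 11.6% of the 13020 genes tested were lower in this way. None of the 9 was higher without overlap (12.2% of all genes). Against the vehicle library of the same tag 7 of 9 were lower in all 3 tags, which held for 22.4% of genes. Tags do not pair total RNA libraries (correlations of same-tag deviations of 0.395, 0.441 and -0.00271), so this count and the tag ratios of total RNA are descriptions. In set B alone, all members passed the test: 8 fell, with log2 fold changes from -0.47 to -5.99, and fibronectin rose by 0.28. Calls were common there, with 36.9% of 13334 genes called lower and 33.1% higher. Over all 6 libraries no gene passed, the set A halofuginone library being much closer to vehicle than the others.

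Fibronectin (Fn1; chromosome 1, 71585520 to 71653200, minus strand, GRCm38) was at 8184, 7287 and 8286 CPM in the set A, tag 2 and tag 3 vehicle libraries, and at 7918, 9414 and 10069 CPM under halofuginone. The set A library lay within the vehicle range and both set B libraries lay above it. Its log2 fold change was 0.21 ± 0.17 (SE, edgeR quasi-likelihood test, adjusted p = 0.485) over 6 libraries and 0.28 ± 0.09 (adjusted p = 0.0265) in set B. When the set A halofuginone library alone was left out, the value was 0.29 and the adjusted p 0.0725, so the small rise in set B rests on the choice of libraries.

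The thrombospondins are secreted trimers (Thbs1 and Thbs2) that bind CD47, CD36 and other receptors and restrain vessel growth, and Thbs1 can also activate latent TGF-beta. Thbs2 (chromosome 17, 14665500 to 14694235, minus strand) was at 3504, 2986 and 2996 CPM in vehicle and 2586, 638 and 643 CPM under halofuginone. All treated libraries were below all vehicle libraries, the set A one by far less than the others. Its log2 fold change was -1.29 ± 0.58 (edgeR adjusted p = 0.304), and -2.27 ± 0.07 in set B (adjusted p = 2.82e-07). Thbs1 (chromosome 2, 118111876 to 118127133, plus strand) was at 622, 267 and 273 CPM in vehicle and 336, 21.1 and 21.7 CPM under halofuginone. The set A treated library was above 2 of the vehicle libraries, so the groups overlapped, although treated was lower than vehicle within each tag. The log2 fold change of Thbs1 was -1.62 ± 1.14 (edgeR adjusted p = 0.427), and -3.70 ± 0.08 in set B (adjusted p = 1.05e-07).

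Tenascin-C (Tnc; chromosome 4, 63959785 to 64047015, minus strand) is a hexameric glycoprotein that loosens adhesion to fibronectin. It was at 127, 147 and 148 CPM in vehicle and 82.0, 113 and 107 CPM under halofuginone, and the groups did not overlap. Its ratio was the most even of the members, with log2 ratios of -0.62, -0.38 and -0.47 in the set A, tag 2 and tag 3 libraries. The fitted change was -0.48 ± 0.18 (edgeR adjusted p = 0.269), and -0.47 ± 0.07 in set B (adjusted p = 0.000549).

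Periostin (Postn) and Tgfbi are the fasciclin-domain members, and bind integrins and collagen. Postn (chromosome 3, 54361109 to 54391037, plus strand) was at 166, 31.6 and 29.2 CPM in vehicle and 64.6, 5.94 and 6.48 CPM under halofuginone. The set A libraries were higher in both treatments, the groups overlapped, and treated was lower than vehicle in each tag. Its log2 fold change was -1.56 ± 1.16 (edgeR adjusted p = 0.448), and -2.34 ± 0.11 in set B (adjusted p = 1.78e-06). Tgfbi (chromosome 13, 56609523 to 56639562, plus strand) was at 2.91, 8.29 and 9.19 CPM in vehicle and 3.94, 0.181 and 0.413 CPM under halofuginone, and the last 2 values rest on 4 and 10 counts. It was the only member other than fibronectin that moved in different directions between tags, being higher with halofuginone in set A. Its log2 fold change was -2.17 ± 1.10 (edgeR adjusted p = 0.33), and -4.87 ± 0.29 in set B (adjusted p = 4.16e-06).

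The members that belong to the Sparc family are Sparc, a collagen-binding glycoprotein, the related Sparcl1 (hevin), and Fstl1, a secreted follistatin-like protein. Sparc (chromosome 11, 55394500 to 55423183, minus strand) was at 1046, 765 and 808 CPM in vehicle and 761, 162 and 158 CPM under halofuginone. Its groups did not overlap, by a margin of a few CPM for the set A treated library. The log2 fold change was -1.28 ± 0.65 (edgeR adjusted p = 0.331), and -2.35 ± 0.07 in set B (adjusted p = 2.8e-07). Sparcl1 (chromosome 5, 104079111 to 104113733, minus strand) was at 60.9, 131 and 152 CPM in vehicle and 44.7, 2.31 and 2.27 CPM under halofuginone. The groups did not overlap, and the set B change of -5.99 ± 0.13 (edgeR adjusted p = 1.05e-07) was the largest among the members, against -2.81 ± 1.24 (adjusted p = 0.299) over all libraries. Fstl1 (chromosome 16, 37776873 to 37836514, plus strand) was at 421, 368 and 377 CPM in vehicle and 309, 164 and 154 CPM under halofuginone, again without overlap. It changed by -0.90 ± 0.30 (edgeR adjusted p = 0.267), and by -1.28 ± 0.07 in set B (adjusted p = 3.39e-06).

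**Figure D1:**
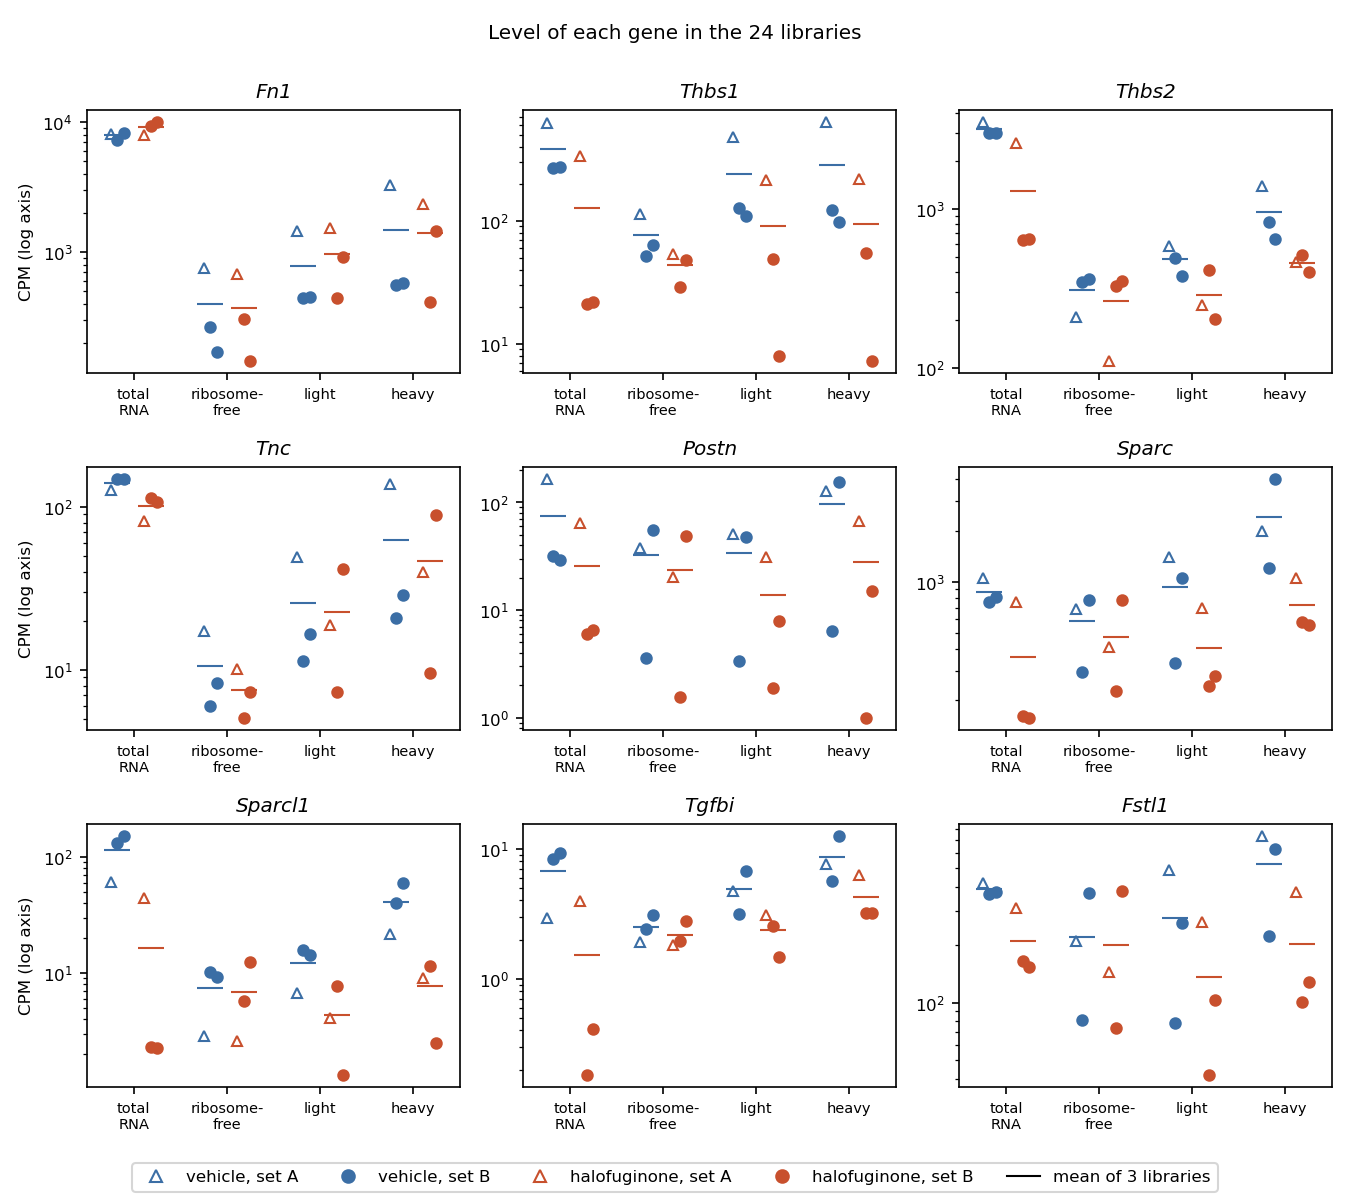
CPM (log axis) of the 9 genes in each of the 24 libraries, by kind of RNA; blue is vehicle, orange is halofuginone, open triangles are set A, filled circles set B, and bars are means of 3 libraries. In total RNA the set B treated libraries of all members but Fn1 lie below vehicle, and the set A treated library lies close to vehicle for most members.

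Across the 6 total RNA libraries the members' median log2 fold change was -1.29, with 8 of 9 below 0, against a median of 0.02 over all genes. At an adjusted threshold of 0.05 edgeR called 0 of 13020 genes (0%). Before adjustment 2292 genes were under it, among them Tnc and Fstl1, 2 of 9 members where 6.43% of genes were under it and lower. DESeq2 called 515 genes (1.68% lower and 2.27% higher), none of them a member. In set B their median was -2.34, against -0.02 over all genes. Without the set A halofuginone library alone 8246 genes were called and the 8 members other than fibronectin remained lower, by 0.37 (Tnc) to 5.65 (Sparcl1) on the log2 scale.

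**Figure D2:**
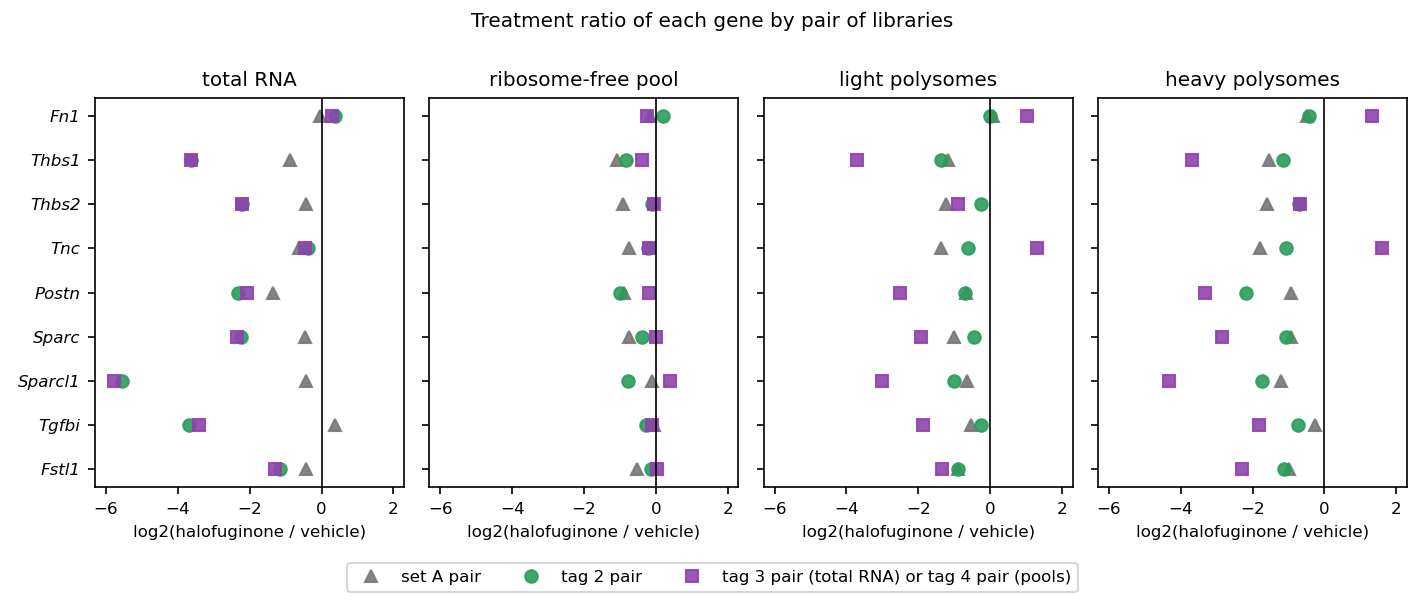
log2(halofuginone / vehicle) of each gene for the libraries that share a header tag, by kind of RNA, with 0.5 CPM added to both values; triangles are set A, circles tag 2, and squares the remaining tag (3 for total RNA, 4 for pools). In the light and heavy pools the tag 4 squares of Fn1 and Tnc lie to the right of 0 and those of the other members lie to the left.

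The RefSeq promoter table (GRCm38.p6) had entries for 6 of the 9 members, in 8 windows. The 250 bases before the start are shown for 5 members that fell in set B by very different amounts, on the strand of the gene and 5′ to 3′, with matches to the motifs searched in capitals. The windows are chr17:14694263-14694512 (minus strand) for Thbs2, chr3:54360857-54361106 (plus) for Postn, chr13:56609336-56609585 (plus) for Tgfbi, chr16:37776805-37777054 (plus) for Fstl1 and chr4:64046937-64047186 (minus) for Tnc. Postn and Tnc had another window each, not shown, and the window of Sparc is not shown either.
Thbs2: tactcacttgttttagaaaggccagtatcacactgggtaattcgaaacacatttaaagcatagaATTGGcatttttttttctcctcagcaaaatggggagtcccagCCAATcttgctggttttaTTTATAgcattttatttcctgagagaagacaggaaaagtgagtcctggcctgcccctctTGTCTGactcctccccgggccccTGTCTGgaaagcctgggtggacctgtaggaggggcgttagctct
Postn: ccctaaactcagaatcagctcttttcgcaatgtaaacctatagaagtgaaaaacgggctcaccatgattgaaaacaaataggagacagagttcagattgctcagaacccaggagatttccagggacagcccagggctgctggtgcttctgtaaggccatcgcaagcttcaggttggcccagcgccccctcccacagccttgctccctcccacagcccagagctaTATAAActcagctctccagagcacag
Tgfbi: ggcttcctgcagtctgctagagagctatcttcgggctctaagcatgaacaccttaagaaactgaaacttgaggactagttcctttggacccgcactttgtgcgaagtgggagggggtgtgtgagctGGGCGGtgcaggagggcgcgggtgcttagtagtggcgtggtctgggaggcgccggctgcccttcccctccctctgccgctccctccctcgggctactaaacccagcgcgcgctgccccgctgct
Fstl1: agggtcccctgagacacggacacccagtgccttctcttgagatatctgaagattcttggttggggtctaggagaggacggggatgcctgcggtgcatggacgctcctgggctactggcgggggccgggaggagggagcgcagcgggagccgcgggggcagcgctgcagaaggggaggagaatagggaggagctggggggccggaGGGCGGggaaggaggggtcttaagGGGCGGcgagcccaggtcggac
Tnc: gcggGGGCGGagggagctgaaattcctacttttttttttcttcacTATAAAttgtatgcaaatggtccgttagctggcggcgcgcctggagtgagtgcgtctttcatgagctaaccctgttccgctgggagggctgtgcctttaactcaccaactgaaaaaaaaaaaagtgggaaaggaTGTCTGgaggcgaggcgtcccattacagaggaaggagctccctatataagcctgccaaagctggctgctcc
Both strands were searched for each motif, and the share of the 32851 windows of the same length in the table that held each is given for comparison. The TATA box was searched as TATAAA, and 12.4% of all windows held it. The Smad box, bound by the effectors of TGF-beta, was searched as CAGACA and was in 17.1% of windows. The binding site of NF-Y, searched as CCAAT, was in 33.8% of windows. The GC box of the Sp1 family was searched as GGGCGG and was in 32.7% of windows. The cyclic AMP response element was searched as TGACGTCA and was in 1.55% of windows. The AP-1 site was searched as TGANTCA, where N is any base, and was in 6.75% of windows. The C/EBP-ATF element, a target of the amino acid response, was searched as TGATGNAAT and was in 0.816% of windows. Thbs2 held 2 Smad boxes and 2 CCAAT boxes, and the TATA letters on the opposite strand 126 bases before its start. Postn held a TATA box 26 bases before its start in the window shown, and its other window held none of the motifs. Tgfbi and Fstl1 held only GC boxes (1 and 2). The Tnc window shown held a GC box, the TATA letters 205 bases before its start and a Smad box. The other Tnc window held the GC box and the TATA letters but no Smad box. The Sparc window held a Smad box and none of the other motifs. None of the 8 windows held the cyclic AMP, AP-1 or C/EBP-ATF letters, which says nothing about those factors elsewhere.

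In the ribosome-free pool no member was without overlap between treatments, where 0.853% of 11960 genes were lower without overlap, and edgeR called no gene (0%). An unadjusted p under 0.05 was reached by 30 genes, none a member (0.092% of genes and lower), and DESeq2 called 0. Within the tags 5 of 9 members were lower in all 3, as were 13.5% of genes. The members' median log2 fold change was -0.23, with 9 of 9 below 0, where 50.3% of all genes were below 0. Without the tag 4 halofuginone library the members' median was -0.84, with 8 of 9 below 0 and fibronectin at 0.30. That fit kept the tag 4 vehicle library, so differences between tags also enter it. Within set A and tag 2 the members' median log2 ratios were -0.76 and -0.27, and fibronectin was at -0.17 and 0.20. Thbs1 was the member with the largest change, at 113, 52.0 and 63.0 CPM in vehicle and 53.7, 28.9 and 47.8 CPM under halofuginone (set A, tag 2, tag 4). It was lower with halofuginone in each tag, and its fitted change was -0.81 ± 0.43 (edgeR adjusted p = 1). With the header tag as a replicate block, where the tags pair these pools, it was -0.78 ± 0.16 with an adjusted p of 0.0459, one of 15 genes called (0.125%). Without the tag 4 halofuginone library, which showed no response of Slc7a11, the unblocked change was -0.88, and those of Postn and Fstl1 moved from -0.46 and -0.14 to -1.59 and -1.03, none of them called. The tag 4 vehicle library, kept in these fits, was the highest vehicle library for Postn (55.8 CPM) and Fstl1 (371 CPM). Within set A and tag 2 the log2 ratios were smaller, at -0.89 and -0.99 for Postn and at -0.53 and -0.15 for Fstl1.

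In light polysomes 8 of 9 members had a log2 fold change below 0, with a median of -1.03 against 0.01 over all genes. Only Tgfbi was lower without overlap, at 4.75, 3.13 and 6.72 CPM in vehicle and 3.11, 2.54 and 1.47 CPM under halofuginone, where 5.97% of 12632 genes were lower in this way. Within the tags 7 members were lower in all 3 (23.5% of genes) and fibronectin was higher in all 3 (20.7%). By edgeR 0 genes were called (0%). Before adjustment 540 were under 0.05, with Sparcl1 the only member (2.94% of genes were under it and lower). DESeq2 called 39 (0.111% lower) and the block 3 (0.0237%), none a member. Sparcl1 had the largest change, -1.48 ± 0.61 (edgeR adjusted p = 0.981), from 6.79, 15.8 and 14.2 CPM to 4.13, 7.67 and 1.32 CPM. Fibronectin was at 1448, 437 and 446 CPM in vehicle and 1539, 439 and 912 CPM under halofuginone, higher in each tag but by little in 2 of them. Its change of 0.31 ± 0.60 did not pass the edgeR test (adjusted p = 0.991).

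Heavy polysomes hold the mRNAs that carry the most ribosomes. All 9 members had a log2 fold change below 0 there, with a median of -1.39 against 0.02 over all genes. Thbs2, Sparc and Sparcl1 did not overlap between treatments, 3 of 9 members where 7.06% of 12222 genes were lower in this way. Within the tags 7 of 9 were lower in all 3, as were 24.7% of genes. By edgeR 0 genes were called (0%). Before adjustment 754 were under 0.05, among them Thbs2, Sparc, Sparcl1 and Tgfbi (4.24% of genes were under it and lower). DESeq2 called 78 and the header-tag block 2 (0.0164%), none of those 2 a member.

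Sparc was at 1981, 1208 and 4026 CPM in vehicle and 1048, 578 and 558 CPM under halofuginone in the set A, tag 2 and tag 4 heavy pools. Every treated library was below every vehicle library, and the change was -1.72 ± 0.48 (edgeR adjusted p = 0.792, unadjusted p = 0.00684). Sparcl1 was at 21.8, 40.0 and 59.9 CPM in vehicle and 9.11, 11.5 and 2.5 CPM under halofuginone. Its change was -2.39 ± 0.59 (edgeR adjusted p = 0.792), and DESeq2 called it (adjusted p = 0.00926), in a comparison where DESeq2 called 0.401% of genes lower. Thbs2 was at 1385, 832 and 644 CPM in vehicle and 461, 512 and 401 CPM under halofuginone, a change of -1.06 ± 0.33 (edgeR adjusted p = 0.792). Its treated libraries lay close together, unlike those of total RNA.

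Fstl1 was at 736, 221 and 630 CPM in vehicle heavy polysomes and 375, 101 and 128 CPM under halofuginone. Thbs1 was at 637, 123 and 98.5 CPM in vehicle and 220, 55.0 and 7.23 CPM under halofuginone. Postn ranged from 6.32 to 154 CPM in vehicle and from 0.991 to 67.6 CPM under halofuginone. Each of these 3 was lower with halofuginone in every tag, with overlap between groups set by the spread between tags. Fibronectin and Tnc went in different directions by tag. Fibronectin was at 3278, 553 and 579 CPM in vehicle and 2364, 413 and 1443 CPM under halofuginone, and Tnc at 138, 20.8 and 28.9 CPM and 39.8, 9.56 and 89.2 CPM. The log2 ratio in the tag 4 pools was 1.32 for fibronectin and 1.61 for Tnc, and both were below 0 in set A and tag 2. Over all libraries neither passed the edgeR test (fibronectin -0.06 ± 0.81, adjusted p = 0.994, and Tnc -0.44 ± 0.89, adjusted p = 0.961).

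The difference of the treatment effect between heavy polysomes and total RNA asks whether the change on polysomes differed from that of the mRNA as a whole. No gene of 13459 was called by edgeR (0%, with 128 at an unadjusted p under 0.05 and 1, or 0.00743%, by DESeq2, not a member). In set B the members with the largest differences were Tgfbi (3.36 ± 0.69, edgeR adjusted p = 0.338), Sparcl1 (3.14 ± 0.83, adjusted p = 0.358), Thbs1 (1.84 ± 1.03, adjusted p = 0.536) and Thbs2 (1.55 ± 0.32, adjusted p = 0.338). Their log2 fold changes were closer to 0 on heavy polysomes than in total RNA, and none of these differences passed the test. Over all libraries those values were 1.16 ± 1.19, 0.43 ± 1.36, 0.02 ± 1.71 and 0.25 ± 0.68. Set B total RNA was of tags 2 and 3 and its heavy pools of tags 2 and 4. In tag 2, 1.91% of genes differed by over 2-fold in heavy polysomes, against 22.7% in total RNA. By tag, Thbs1 had log2 ratios of -1.15 and -3.68 in heavy polysomes (total RNA -3.63 and -3.62). Sparcl1 had -1.75 and -4.33 (-5.55 and -5.78), Thbs2 -0.70 and -0.68 (-2.23 and -2.22), and Tgfbi -0.74 and -1.81 (-3.69 and -3.41). Against the ribosome-free pool no gene of 13053 was called (0%, with 53 at an unadjusted p under 0.05 and 0 by DESeq2), and Sparcl1 had the largest difference, -2.22 ± 0.96 (edgeR adjusted p = 1). Without the tag 4 halofuginone ribosome-free library, and with the vehicle library of that tag kept, it was -1.57.

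In vehicle cells the place of each mRNA on the gradient was compared directly. All 9 members were at a higher CPM in heavy polysomes than in the ribosome-free pool on average, by 0.45 (Fstl1) to 1.73 (Tnc) on the log2 scale. Over all genes the median was -0.02, with 50.7% below 0. Without the set A heavy polysome library fibronectin was at -0.23 and Thbs1 at -0.21. Sparcl1 alone was called (1.66 ± 0.53, edgeR adjusted p = 0.0434), where 3616 of 12225 genes (29.6%) were called in either direction, and it kept the call only when the set A ribosome-free library was left out. Without any of the other 5 the call was lost, at log2 fold changes of 1.32 to 1.996. With the header tag as a block Tnc was called too (1.39 ± 0.35, adjusted p = 0.0184), where the block called 36.9% of genes.

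A comparison of vehicle heavy polysomes with total RNA was added after the values had been seen, because fibronectin was far lower in every pool. Fibronectin (-2.23 ± 0.65, edgeR adjusted p = 0.0199), Thbs2 (-1.53 ± 0.30, adjusted p = 0.00335) and Sparcl1 (-1.30 ± 0.41, adjusted p = 0.0285) were lower in heavy polysomes than in total RNA, and Sparc was higher (1.66 ± 0.40, adjusted p = 0.0094). These are 4 of 9 members where 6020 of 12689 genes (47.4%) were called. The fibronectin call was lost without set A total RNA (-2.19) and without the tag 2 or tag 4 heavy polysomes (-1.81 in both cases). Without the set A heavy polysomes it was -3.60, still called. That of Sparcl1 was lost without the total RNA of tag 2 (-1.21) or tag 3 (-1.04) and without the heavy polysomes of set A (-0.999) or tag 2 (-1.28). With all 12 vehicle libraries scaled together, fibronectin averaged 6395 CPM in total RNA, 577 in ribosome-free RNA, 746 in light polysomes and 1354 in heavy ones, so no pool reached the level of total RNA. The set A library carried the heavy polysome mean, at 3012 CPM against 511 and 538 CPM for tags 2 and 4. Sparc averaged 705 CPM in total RNA and 2227 CPM in heavy polysomes.

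Transcript length moved with this ratio. Over 11223 genes the Spearman correlation of transcript length with the log2 ratio of heavy polysomes to total RNA was -0.523, a description across genes of the same libraries. The median was 0.70 for transcripts of 1 to 2 kb and -1.2 for those over 8 kb. Fibronectin, with a transcript of 8315 bases, lay at the 17.6th percentile of its length class. Sparc (1366 bases) lay at the 95.1st, Thbs2 (5895 bases) at the 10.3rd and Sparcl1 (2759 bases) at the 5.38th percentile of theirs. The part of length in these ratios was not tested.

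**Figure D3:**
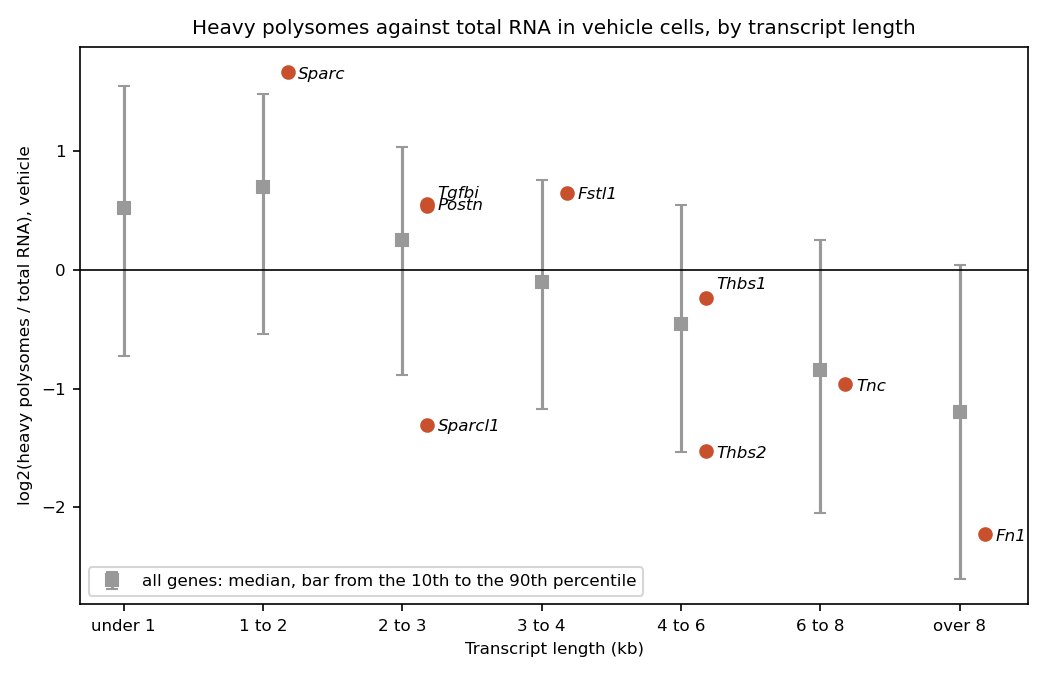
log2 ratio of heavy polysomes to total RNA in vehicle cells by class of transcript length (kb); grey squares are medians of all genes with bars from the 10th to the 90th percentile, and orange points are the 9 genes. The medians go from 0.70 at 1 to 2 kb to -1.2 above 8 kb, with Fn1, Thbs2 and Sparcl1 below and Sparc above the median of their class.

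The members also differ in the codon that halofuginone concerns. Proline codons made up 7.75% of the fibronectin coding sequence (192 of 2477 codons), 7.53% of that of Sparc and 6.31% of that of Sparcl1, against a median of 5.27% over 21595 coding genes. The share was 3.27% in Fstl1, 3.94% in Postn and 4.25% in Tgfbi. Fibronectin, with the highest share, was the only member that rose in total RNA of set B. The members that fell there had shares from 3.27% (Fstl1) to 7.53% (Sparc). The part of proline codons in these changes was not tested.

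Over the 24 libraries, with each kind of RNA centred on its own mean, the members did not all move alike. Postn, Sparc and Fstl1 went together (Pearson r of 0.865 to 0.913), as did Thbs2, Sparcl1 and Tgfbi (0.737 to 0.896), and Sparc also went with Tgfbi (0.808). Fibronectin had its highest correlation among the members with Tnc (0.744) and its lowest with Sparcl1 (-0.41). The genes with the most similar pattern to a member were Col1a1 for both Postn (0.953) and Fstl1 (0.962), Ddx1 for fibronectin (0.964), Sh3bp4 for Thbs1 (0.969), Scd2 for Thbs2 (0.947) and Pdia6 for Tnc (0.884). They were Sema3f for Sparc (0.972), Cyp2d22 for Sparcl1 (0.964) and Fam26e for Tgfbi (0.926). Apart from fibronectin, the second most similar were Col3a1 (0.932, Postn), Pcdh18 (0.916, Fstl1), St3gal2 (0.96, Thbs1), Peg3 (0.937, Thbs2), Fbn1 (0.88, Tnc), Maged2 (0.971, Sparc), C1s1 (0.961, Sparcl1) and Dkk3 (0.921, Tgfbi). These correlations share libraries, treatment, depth and set, which was not centred out, and are descriptions.

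The genes around the members in the same pathway were given by lists. Of the other matricellular proteins, 19 of 25 were tested in total RNA, and 16 fell and 1 rose in set B (36.9% and 33.1% of all genes), with a median of -1.51 against -0.02 over all genes. Over all 6 libraries none was called, and the median was -0.81 with 18 of 19 below 0. Edil3, an integrin ligand, averaged 9.89 ± 5.19 CPM in vehicle and 1.94 ± 1.62 CPM under halofuginone, and Spp1 (osteopontin) 2016 ± 708 and 670 ± 195 CPM (SD, n = 3), both without overlap. Their changes over 6 libraries were -2.35 ± 0.71 and -1.59 ± 0.35 (edgeR adjusted p = 0.267 for both).

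Of the receptors 13 of 16 were tested, and in set B 4 rose and 6 fell, shares near those over all genes (33.1% and 36.9%). Itga8, the alpha chain of a fibronectin-binding integrin, averaged 16.7 ± 2.60 CPM in vehicle and 4.64 ± 4.58 CPM under halofuginone. In set B it fell by 3.21 ± 0.16 and Itgb3 by 2.82 ± 0.19, while Itgb1 rose by 0.51 ± 0.08 and Itgav by 1.15 ± 0.10, and Itga5, the main fibronectin receptor chain, fell by 0.73 ± 0.08 (edgeR). Over all 6 libraries Itga8 and Itgb3 were at -1.85 ± 0.68 and -1.48 ± 0.66 (adjusted p = 0.269 and 0.301).

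Of the genes for fibronectin assembly, crosslinking and cleavage 16 of 17 were tested, and 6 rose and 7 fell in set B, again near the shares over all genes (33.1% and 36.9%). Tgm2, a transglutaminase that crosslinks fibronectin, averaged 13.2 ± 1.15 CPM in vehicle and 25.5 ± 10.4 CPM under halofuginone. It rose in set B by 1.24 ± 0.11, and was at 0.95 ± 0.34 over all libraries (edgeR adjusted p = 0.267). Of the mechanical and TGF-beta linked regulators, all 17 were tested, and 9 rose and 7 fell in set B, where 33.1% of all genes rose and 36.9% fell. Skil and Smad7, both inhibitors of the TGF-beta pathway, rose by 1.35 ± 0.11 and 1.37 ± 0.12, while the ligand Tgfb3 fell by 2.26 ± 0.09 and the receptor Tgfbr2 by 1.00 ± 0.07. Other genes of the same list went up in tags 2 and 3. Log2 ratios were 0.42 and 0.22 for the ligand Tgfb1 and 0.51 and 0.45 for Smad2. They were 1.00 and 1.01 for Smad3 and 0.60 and 0.78 for Smad4. Over all 6 libraries Skil and Smad7 were at 1.13 ± 0.50 and 1.05 ± 0.32 (edgeR adjusted p = 0.299 and 0.267).

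**Figure D4:**
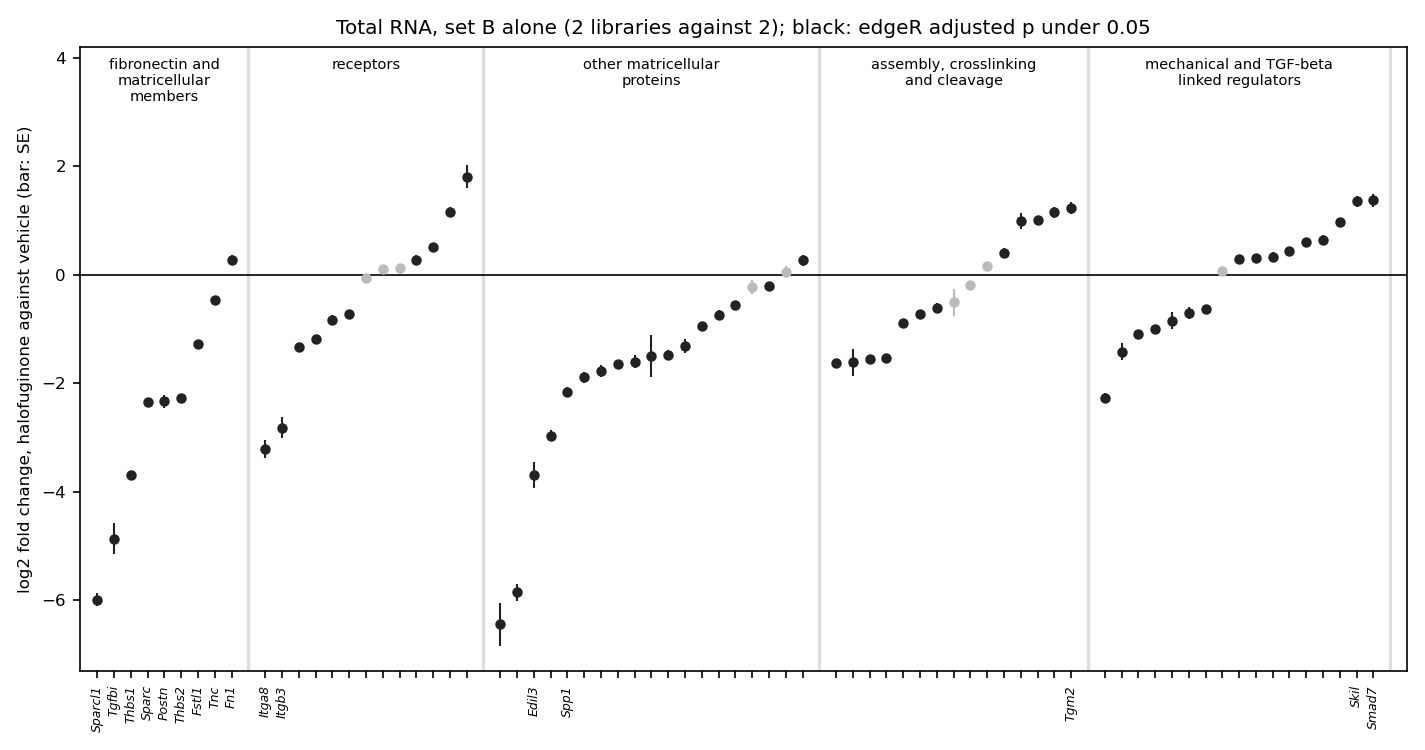
log2 fold change (halofuginone against vehicle) with its standard error in total RNA of set B for the 9 genes and the tested genes of 4 lists (1 gene not shown), ordered within each and labelled where named by rule; black points passed the edgeR test at an adjusted p under 0.05. Sparcl1 has the largest fall of the 9 genes (-5.99) and Fn1 alone is above 0 (0.28).

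Exons of fibronectin share 292 bases (2.5% of its exon length) with Apol7d, those of Thbs1 208 bases (3.42%) with Gm29233 and those of Tnc 176 bases (2.26%) with 8030451A03Rik, all on the opposite strand. The strand setting of the counting is not given in the sources used here, so part of these counts could come from the opposite strand.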

How the data were processed

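The authors deposited a single table of whole-number counts per gene symbol for 24 libraries. The submitters' processing notes name GRCm38.p5, featureCounts with Subread 1.5.0p3, STAR 2.5.2b and Trimmomatic 0.36. Columns were matched to groups by treatment and fraction numbers (taken from the top of the gradient), never to a numbered replicate. Members and gene lists were chosen with earlier results of these data known.

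Counts were tested in edgeR 4.0.16 by quasi-likelihood (R 4.3.3; TMM, default expression filter, Benjamini-Hochberg threshold 0.05 over all genes), each kind of RNA alone. The alternatives were DESeq2 1.42.0, median-of-ratios factors, no filter, a filter at 5 CPM, each library left out, the header tag as block, set as covariate, and set B alone. The fits were tested on simulated data. Named genes were all members, the 2 members of each list with the largest change in total RNA at 5 CPM or more, and the 2 most correlated genes of each member; 2 genes that this rule named are not reported here. Itgb1, Itgav, Itga5, Tgfb1, Tgfb3, Tgfbr2, Smad2, Smad3, Smad4, Slc7a11, Trib3 and Eprs were named after their values were seen.

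Same-tag libraries of the 2 treatments deviated together in the ribosome-free (r = 0.937, 0.853 and 0.832), light (0.818, 0.709, 0.408) and heavy pools (0.782, 0.736, 0.356), and in vehicle heavy and ribosome-free pools (0.239, 0.428, 0.45), so tags pair these. In total RNA the values were 0.395, 0.441 and -0.00271, so they do not pair there. Exon lengths and coordinates came from GENCODE M21 (GRCm38). No spike-in is mentioned in the labels.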

Additional observations from a re-analysis of the deposited data

How the results depend on the processing

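The count of genes called depended on the libraries more than on scaling. For total RNA (0 over all libraries) it was 515 with DESeq2, 6 with set as covariate, 9337 in set B alone and 0 to 8246 with 1 library left out, the highest without the set A halofuginone library. For the ribosome-free pool (0) the replicate block by header tag gave 15 and leaving out a library 0. For light polysomes (0) DESeq2 gave 39, no filter 47 and the block 3, and for heavy polysomes (0) DESeq2 gave 78, no filter 105 and the block 2. For the difference of effects between heavy polysomes and total RNA (0), DESeq2 and no filter gave 1 each and leaving out a library 0 to 3, and against the ribosome-free pool (0) no filter gave 7 and set B 1. Vehicle heavy polysomes against the ribosome-free pool (3616) gave 5524 in set B and 1897 to 5844 with a library left out. Against total RNA (6020) they gave 3868 with the block, where only set A and tag 2 have libraries of both kinds.

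These values changed sign. In the ribosome-free pool of set B Fn1 was at 0.032 and Fstl1 at 0.0081. In light polysomes Tnc was at 0.094 with set as covariate and 0.80 in set B, and in heavy polysomes at 0.12 and 0.99. Fn1 in heavy polysomes was at 0.12 with the replicate block, 0.32 with set as covariate and 0.71 in set B. For heavy minus total, Sparc was at 0.12 with the replicate block and 0.11 in set B, and Fn1 at 0.14 with set as covariate and 0.42 in set B. For vehicle heavy against total RNA Postn was at -1.10 with the replicate block. The cause was not tested.

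With 1 library left out these ranges cross 0. In the ribosome-free pool: Fn1 -0.83 to 0.79, Fstl1 -1.03 to 0.47, Postn -1.59 to 0.20, Sparc -0.89 to 0.012, Sparcl1 -0.84 to 0.29, Tgfbi -0.40 to 0.017, Thbs2 -0.49 to 0.14 and Tnc -0.78 to 0.064. Light polysomes: Fn1 -0.20 to 1.13 and Tnc -0.96 to 0.69. Heavy polysomes: Fn1 -0.64 to 1.32 and Tnc -1.33 to 0.90. Heavy minus total: Fn1 -0.85 to 1.13, Postn -2.01 to 1.83, Sparc -0.79 to 0.74, Sparcl1 -0.084 to 3.27, Thbs1 -1.58 to 2.58, Thbs2 -0.076 to 1.26 and Tnc -0.86 to 1.40. Heavy minus ribosome-free: Fn1 -0.90 to 1.48, Thbs1 -2.33 to 0.63 and Tnc -0.77 to 1.48. In vehicle, heavy against ribosome-free: Fn1 -0.23 to 2.01 and Thbs1 -0.21 to 1.59, and heavy against total: Thbs1 -1.60 to 0.30. No call of a member was lost under median-of-ratios factors, no filter, DESeq2, set B, the covariate or the block. The stricter filter lost the Sparcl1 call of vehicle heavy against ribosome-free (1.53).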
